A study of Mus musculus with 6 samples.

Results

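The genes described here are 10 Eph receptors, Epha2, Epha3, Epha4, Epha5, Epha7, Ephb1, Ephb2, Ephb3, Ephb4 and Ephb6. Eph receptors are cell-surface tyrosine kinases. They were found by name and not by their values, as every non-control probe whose RefSeq accession belongs to one of these symbols. This gave 15 of the 41174 non-control probes on a whole-genome mouse array. No spot of the 15 was marked as faulty, and 13 of them, with at least 1 probe for each of the 10 genes, passed the filter, which asked for a signal well above background on each array of 1 group or more. The other two, second probes of Epha3 and Epha7, were not tested.

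RNA came from primary astrocyte cultures of the cortex and striatum of wild-type C57BL/6J mice at postnatal day 1. It was hybridised to 6 one-colour arrays, 2 per group. The sample records give a minimum RNA integrity number of 6.5 for all 3 groups. Washout cultures received Ro3303544, an inhibitor of GSK-3, at 1 µM for 48 h from day 13 in vitro and then growth medium without it for 48 h, which places their harvest at day 17. Ro cultures were given the same treatment and harvested at its end, at day 15. Control cultures had control medium, or an equal amount of DMSO by the wording of the protocol, to the same day 15. The sample records give 10% serum for all 3 groups. All 3 groups had earlier been treated with 5 µM AraC, which kills dividing cells, for 2 days from about day 7, and under 1% of cells then carried the microglial protein Iba1. The labels leave it unsaid if both cultures of a group were prepared separately, so p-values measure the spread between these arrays, which may be technical. No untreated culture of day 17 is among the samples used here.

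An Eph receptor is activated when it meets an ephrin on a neighbouring cell, and its usual effect is to make the touched cell edge withdraw. A-class receptors mostly bind ephrin-A ligands, which are held in the membrane by a lipid anchor, and B-class receptors bind the membrane-spanning ephrin-B ligands, while Epha4 binds both classes. In brain the family guides axons, shapes synapses and sorts cells at boundaries, and astrocytes carry receptors and ligands of both classes. GSK-3 marks beta-catenin for destruction, and in the crypts of the intestine Ephb2 and Ephb3 are known targets of beta-catenin with TCF factors.

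On each array 60.3% to 65.2% of probes were well above background, and replicates correlated at 0.992 to 0.996 across the features tested. Regions with raised dim spots held 4.58% of spots on washout 1 and 0.924% on washout 2, against at most 0.0115% on the Ro and control arrays. Ro and control arrays lay on 1 slide and washout arrays on another, so washout and slide cannot be told apart. Intensities are given here scaled to a common 75th percentile of 750 units, and values of different genes are not compared. Axin2, a scaffold of the beta-catenin destruction complex that beta-catenin itself induces, served as a check of the treatment. The scaled intensity of Axin2 was 651 and 728 in washout, 5062 and 4735 in Ro, and 226 and 277 in control, a log2 difference of 4.29 ± 0.13 (SE) between Ro and control (limma adjusted p = 0.00010). Tested by itself, the Axin2 probe was still higher in washout than in control, by 1.46 ± 0.13 (adjusted p = 0.010). With no filter on dim probes this difference did not pass (adjusted p = 0.053). All 8 astrocyte markers were measured in the cultures.

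Between Ro and control, 3 of the 10 Eph receptors rose, 3 fell and 4 did not pass the test, at an adjusted p under 0.05 over 20091 features. Epha7, Ephb1 and Epha4 rose, and Epha5, Epha2 and Ephb3 fell. The background was high: 42.1% of all features passed in this comparison, 19.4% as rises and 22.7% as falls. Of the 10 receptors 3 were called with a change of at least 2-fold (Epha7, Ephb1 and Epha5), against 11.3% of all features. The median of the 10 log2 differences was 0.04, beside 0.00 over all features, and the median of their sizes without sign was 0.72, beside 0.31 over all features. Both classes of receptor had members that rose and members that fell.

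**Figure D1:**
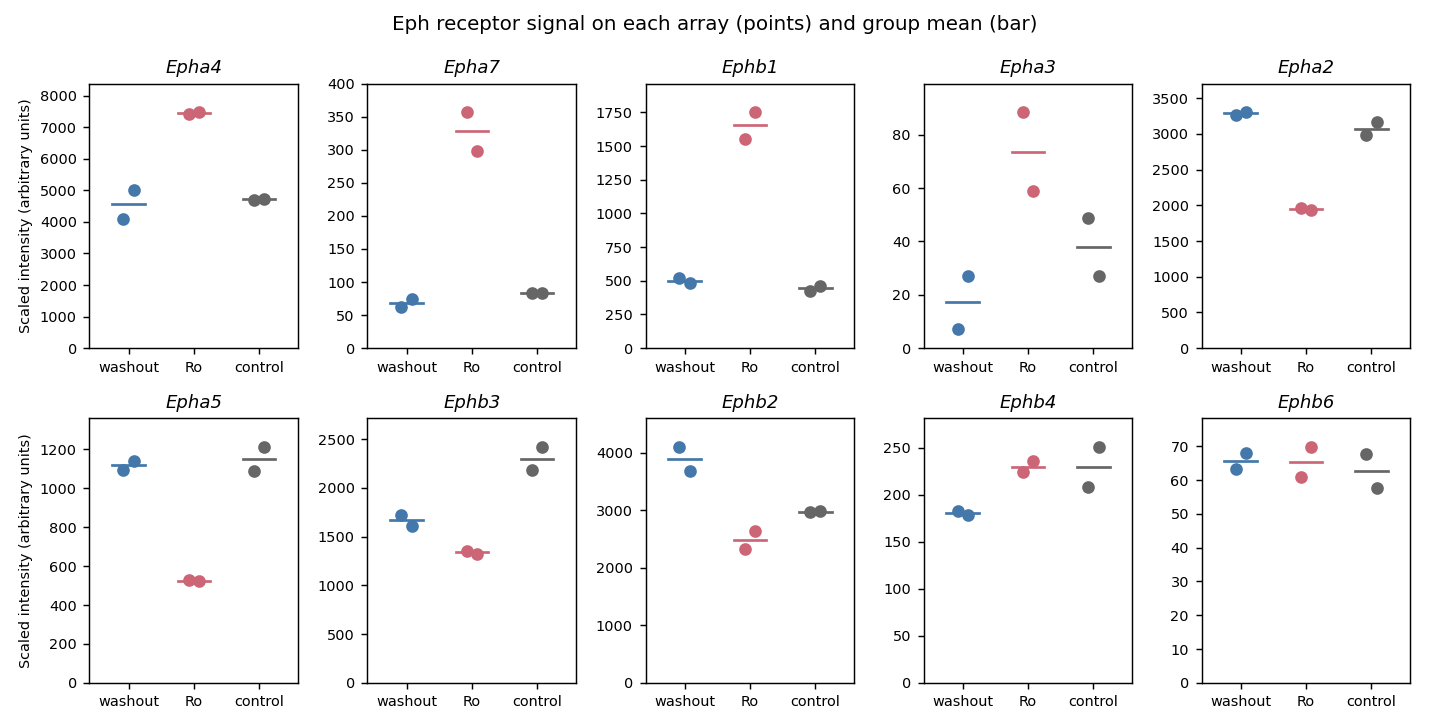
Scaled intensity (arbitrary units, linear axes that start at 0 and differ between panels) of the probe used for each Eph receptor. Points are single arrays, 2 per group, and bars are group means. Epha3, Epha4, Epha7 and Ephb1 have both Ro points above all other points, and Epha2, Epha5, Ephb3 and Ephb2 have both Ro points below all others. Epha3 and Ephb2 did not pass the test in Ro against control.

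Epha7, a receptor for ephrin-A that takes part in mapping of cortical axons, had a scaled intensity of 62.2 and 73.8 in washout, 357 and 298 in Ro, and 83.9 and 82.7 in control. Both Ro arrays stood far above the other 4, which lay close together. The log2 difference was 1.97 ± 0.13 between Ro and control (3.92-fold, adjusted p = 0.00051) and -2.27 ± 0.13 between washout and Ro (adjusted p = 0.00035). Washout against control gave -0.30 ± 0.13 (adjusted p = 0.210), with no overlap between the groups but not past the threshold. The second Epha7 probe, made to another transcript accession, was below background on all 6 arrays. It read 15.1 and 10.4 in Ro, against 3.25 and 4.06 in control, so that no fold change is given for it.

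Ephb1, which directs retinal axons away from the midline at the optic chiasm, had 523 and 481 units in washout, 1554 and 1754 in Ro, and 426 and 464 in control. Its Ro arrays were again above all others. The log2 difference was 1.89 ± 0.10 in Ro against control (3.71-fold, adjusted p = 0.00030), and -1.72 ± 0.10 in washout against Ro (adjusted p = 0.00036). Between washout and control it was 0.17 ± 0.10 (adjusted p = 0.322), so the groups were not told apart by the test although every washout value was above every control value.

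Epha4, which binds ephrins of both classes and restrains axon growth, gave 4092 and 5024 units in washout, 7433 and 7487 in Ro, and 4693 and 4740 in control. The Ro arrays were highest, and the washout arrays lay on either side of the control arrays. Its log2 difference was 0.66 ± 0.11 between Ro and control (1.58-fold, adjusted p = 0.0090), a call that was lost without Ro 1 (adjusted p = 0.052) and without Ro 2 (adjusted p = 0.051). Between washout and Ro it was -0.72 ± 0.11 (adjusted p = 0.0068) and between washout and control -0.06 ± 0.11 (adjusted p = 0.782). A second Epha4 probe ran the same way when tested by itself, with 0.60 ± 0.16 for Ro against control (adjusted p = 0.038) and -0.70 ± 0.16 for washout against Ro (adjusted p = 0.024).

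Epha5, a receptor for ephrin-A in topographic maps of the brain, had 1096 and 1140 units in washout, 531 and 521 in Ro, and 1088 and 1214 in control. Both Ro arrays were far below the other 4. The log2 difference was -1.13 ± 0.08 in Ro against control (2.19-fold lower, adjusted p = 0.00072) and 1.09 ± 0.08 in washout against Ro (adjusted p = 0.00073). Washout and control overlapped, with a difference of -0.04 ± 0.08 (adjusted p = 0.790). The second Epha5 probe, much dimmer and above background on only 1 of the Ro arrays, moved in the same direction, by -1.49 ± 0.30 in Ro against control (adjusted p = 0.016) and 1.60 ± 0.30 in washout against Ro (adjusted p = 0.013).

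Epha2, a receptor for ephrin-A1 that is best known from epithelial cells, read 3265 and 3308 units in washout, 1958 and 1929 in Ro, and 2984 and 3167 in control. The difference was -0.66 ± 0.07 in Ro against control (1.58-fold lower, adjusted p = 0.0020) and 0.76 ± 0.07 in washout against Ro (adjusted p = 0.0013). Its washout and control values differed by 0.10 ± 0.07, which did not pass the test (adjusted p = 0.428).

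Ephb3 read 1726 and 1610 units in washout, 1357 and 1325 in Ro, and 2179 and 2422 in control. The 3 groups did not overlap, with control highest and Ro lowest. The log2 difference between Ro and control was -0.78 ± 0.09 (1.71-fold lower, adjusted p = 0.0024). It was 0.31 ± 0.09 between washout and Ro (adjusted p = 0.039) and -0.46 ± 0.09 between washout and control (adjusted p = 0.039). Both of these last calls were near the threshold. The first was lost without Ro 1, Ro 2, washout 1 or washout 2 (adjusted p = 0.139, 0.168, 0.125 and 0.057). The second was lost without any single one of the 6 arrays (adjusted p between 0.081 and 0.139).

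Ephb2, which in neurons also clusters glutamate receptors, had 4108 and 3692 units in washout, 2335 and 2643 in Ro, and 2968 and 2984 in control. Ro was lowest and washout highest, with no overlap between any of the groups. Only the step between washout and Ro passed the test, at 0.65 ± 0.10 (1.57-fold, adjusted p = 0.0059). Ro against control gave -0.26 ± 0.10 (adjusted p = 0.088), and washout against control 0.39 ± 0.10 (adjusted p = 0.074). The second Ephb2 probe gave -0.12 ± 0.14, 0.23 ± 0.14 and 0.11 ± 0.14 for Ro against control, washout against Ro and washout against control, none past the threshold (adjusted p = 0.537, 0.244 and 0.652). The call for Ephb2 therefore rested on 1 of its probes. Neither Ephb2 nor Ephb3 was higher in Ro than in control.

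Epha3, a receptor for ephrin-A5, was below background on washout 1, the only one of the 10 receptors not well above it on all 6 arrays. It read 7.26 and 27.0 units in washout, 88.5 and 58.7 in Ro, and 48.9 and 26.9 in control. The arrays of each group differed widely, and washout overlapped with control. The log2 difference was 0.99 ± 0.68 in Ro against control (adjusted p = 0.295) and -2.36 ± 0.68 in washout against Ro (adjusted p = 0.044). The call for washout against Ro was lost without control 1, control 2, Ro 1, Ro 2 or washout 1 (adjusted p = 0.066, 0.066, 0.162, 0.097 and 0.083), and the difference without washout 1 was -1.42. Washout against control gave -1.37 ± 0.68 (adjusted p = 0.261). The washout against Ro call was also lost with no filter on dim probes, with only the arrays of the compared groups and with the replicate block (adjusted p = 0.084, 0.066 and 0.072). The second Epha3 probe was well above background only on Ro 1. It read 6.40 and 17.0 units in washout, 25.5 and 16.9 in Ro, and 5.27 and 14.3 in control, so its washout and Ro values overlapped.

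Ephb4, the receptor of vein endothelium for ephrin-B2, had 183 and 178 units in washout, 224 and 236 in Ro, and 208 and 251 in control. Ro and control overlapped, with a log2 difference of 0.01 ± 0.11 (adjusted p = 0.955). Both washout arrays were below the other 4, by -0.35 ± 0.11 against Ro (adjusted p = 0.055) and -0.34 ± 0.11 against control (adjusted p = 0.121), neither past the threshold. Ephb6, whose kinase domain is inactive, had 63.2 and 68.0 units in washout, 61.0 and 69.9 in Ro, and 67.7 and 57.7 in control. The ranges of all 3 groups overlapped, and its log2 differences were 0.06 ± 0.12 for Ro against control, 0.01 ± 0.12 for washout against Ro and 0.07 ± 0.12 for washout against control (adjusted p = 0.700, 0.974 and 0.749).

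**Figure D2:**
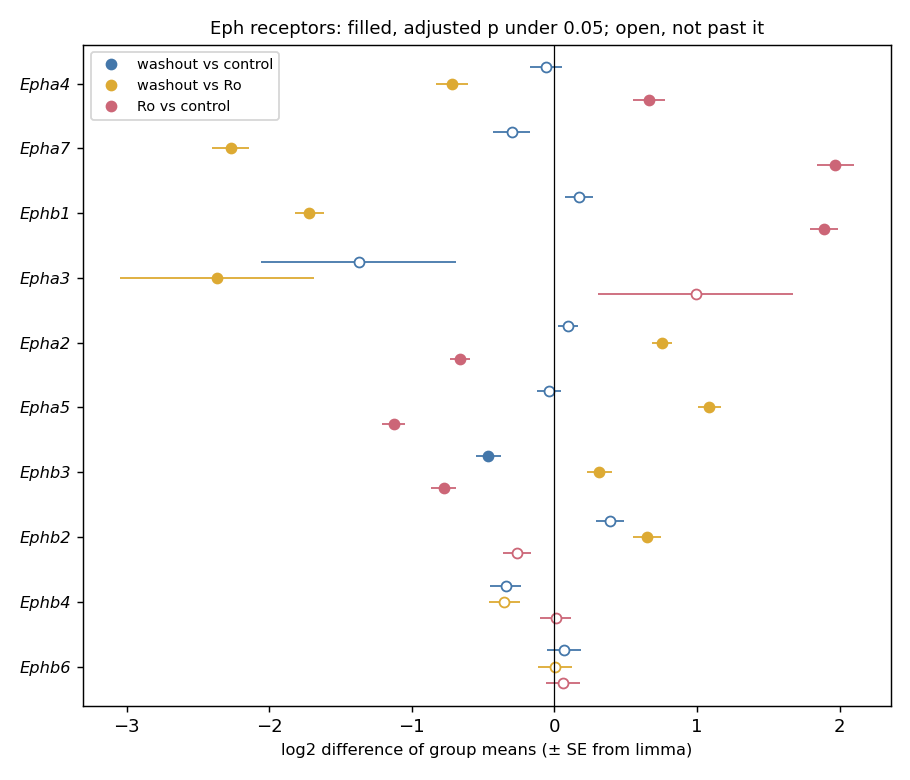
Log2 difference of group means (x axis) for each Eph receptor (rows) in washout against control, washout against Ro and Ro against control. Bars are the SE from limma with 2 arrays per group, filled points passed an adjusted p of 0.05 and open points did not. Epha4, Epha7 and Ephb1 lie right of 0 in Ro against control and left of 0 in washout against Ro, and Epha2, Epha5 and Ephb3 lie the other way round.

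Across the family, washout against Ro gave 4 receptors higher (Epha2, Epha5, Ephb2 and Ephb3), 4 lower (Epha3, Epha4, Epha7 and Ephb1) and 2 not past the threshold. Of all features 41.5% passed in this comparison, 21.4% as rises and 20.1% as falls. Of the 10 receptors 4 were called with a change of at least 2-fold (Epha3, Epha5, Epha7 and Ephb1), against 11.5% of all features. For Epha3, which was below background on washout 1, the log2 difference ranged from -3.31 to -0.78 over the alternative settings described below. With median centring, and with the authors' deposited values, the split was 3 higher and 5 lower, with Ephb3 no longer called and Ephb4 called as lower. The shares of all features under those settings are not given beside this split. Both this comparison and Ro against control use the same Ro arrays, so opposite signs in them are not independent of each other. Against control, 1 of the 10 receptors was lower in washout (Ephb3) and none was higher, where 10.1% of all features passed, 4.13% as rises and 5.97% as falls. None was called with a change of at least 2-fold, against 2.17% of all features. The median size of the 10 differences without sign was 0.24, beside 0.17 over all features.

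A RefSeq promoter was found for each of the 10 genes, 11 in all since Epha7 has 2 start sites. Shown here are 4, those of the largest rises in Ro (Epha7, with its more upstream start site, and Ephb1), the largest fall (Epha5), and Ephb3, which was lower in both Ro and washout. Each line gives the 250 bases before the start site, 5′ to 3′ on the strand of the gene in build GRCm38.p6, with CG dinucleotides in capitals. The windows are chr4:28812881-28813130 (plus strand) for Epha7, chr9:102354694-102354943 (minus strand) for Ephb1, chr5:84417383-84417632 (minus strand) for Epha5 and chr16:21204545-21204794 (plus strand) for Ephb3.
Epha7: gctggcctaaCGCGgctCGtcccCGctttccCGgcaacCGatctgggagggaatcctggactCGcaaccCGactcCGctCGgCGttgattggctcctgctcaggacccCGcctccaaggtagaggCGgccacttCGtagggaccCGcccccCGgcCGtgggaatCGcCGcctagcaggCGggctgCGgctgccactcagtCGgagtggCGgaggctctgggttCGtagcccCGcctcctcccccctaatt
Ephb1: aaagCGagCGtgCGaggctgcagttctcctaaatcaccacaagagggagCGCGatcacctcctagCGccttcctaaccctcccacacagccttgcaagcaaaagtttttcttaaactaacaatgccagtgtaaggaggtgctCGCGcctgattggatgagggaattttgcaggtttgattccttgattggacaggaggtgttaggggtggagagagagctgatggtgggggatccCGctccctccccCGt
Epha5: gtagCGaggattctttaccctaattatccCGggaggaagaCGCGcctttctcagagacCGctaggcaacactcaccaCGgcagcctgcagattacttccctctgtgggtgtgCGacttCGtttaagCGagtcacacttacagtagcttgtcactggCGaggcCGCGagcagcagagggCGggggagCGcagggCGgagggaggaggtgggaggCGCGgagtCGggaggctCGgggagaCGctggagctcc
Ephb3: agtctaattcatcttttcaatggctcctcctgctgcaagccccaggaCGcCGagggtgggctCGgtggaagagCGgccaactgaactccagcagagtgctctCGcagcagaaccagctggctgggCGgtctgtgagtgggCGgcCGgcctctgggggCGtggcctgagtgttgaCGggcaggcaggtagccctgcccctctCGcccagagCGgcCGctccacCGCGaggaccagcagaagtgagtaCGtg
CG dinucleotides numbered 25 in the Epha7 window, 10 in Ephb1, 20 in Epha5 and 16 in Ephb3. Over the 11 windows of the family they numbered 9 to 27 with a median of 16, and the median of all 32851 promoters in the table was 6. At least 9, the lowest count of the family, were held by 40.3% of all promoters. Windows of receptors that rose in Ro held 10 to 25 and windows of receptors that fell held 9 to 20, so the ranges overlapped. The TCF/LEF core CTTTGA was searched on both strands (TCAAAG on the other). It was in 13.8% of all windows and in the window of 1 of the 10 genes, Epha2, which fell in Ro. It is shown here in capitals, 209 bases before the start site on the strand of the gene, at chr4:141301000-141301029:
Epha2: accctggtggcgCTTTGAaatgagaaatct
These matches are descriptions of letters in a window, and more distant sequence was not examined.

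The ligands were measured with the receptors. Of 5 ephrin-A genes 3 were tested, and 1 of them, Efna1, fell in Ro while none rose. Over all features 19.4% rose and 22.7% fell in Ro against control. Efna1, a ligand of Epha2, had 84.0 and 71.3 units in washout, 67.9 and 67.6 in Ro, and 156 and 144 in control. The log2 difference between Ro and control was -1.15 ± 0.10 (adjusted p = 0.0013). Its washout arrays lay near the Ro arrays and below both control arrays, with -0.96 ± 0.10 against control (adjusted p = 0.013). Leaving out control 1 or control 2 ended that call (adjusted p = 0.064 and 0.067). Efna4 and Efna5 did not pass in any comparison, with log2 differences of 0.03 ± 0.10 and 0.15 ± 0.09 in Ro against control.

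All 3 ephrin-B genes were tested, and Efnb3 rose in Ro while Efnb1 and Efnb2 fell. The shares over all features were 19.4% as rises and 22.7% as falls. Efnb3, the midline ligand that stops corticospinal axons from crossing back, had 250 and 215 units in washout, 864 and 955 in Ro, and 208 and 192 in control. Its log2 difference was 2.19 ± 0.11 in Ro against control (4.55-fold, adjusted p = 0.00026) and -1.97 ± 0.11 in washout against Ro (adjusted p = 0.00033). Efnb2, the ligand of Ephb4 in arteries, had 7036 and 6704 units in washout, 4057 and 3984 in Ro, and 5530 and 5808 in control. It differed by -0.50 ± 0.07 in Ro against control (adjusted p = 0.0053) and by 0.77 ± 0.07 in washout against Ro (adjusted p = 0.0013). Efnb1, the ligand with the opposite layout to Ephb2 and Ephb3 in intestinal crypts, differed by -0.68 ± 0.10 in Ro against control (adjusted p = 0.0048). It had 3891 and 4296 units in Ro, against 6429 and 6700 in control. None of the 3 passed in washout against control (adjusted p between 0.079 and 0.269). Of the other Eph receptors, Epha1 was tested and did not pass (0.05 ± 0.17 in Ro against control, adjusted p = 0.838), and the probes of Epha6, Epha8 and Epha10 were below background on all 6 arrays.

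Of 13 tested exchange factors and GTPase-activating proteins that act below Eph receptors, 3 rose and 6 fell in Ro against control (median -0.16). Of all features 19.4% rose and 22.7% fell in this comparison. Among the genes that fell were Ngef, Arhgef15 and Arhgef16, which are ephexins, exchange factors that Eph receptors bind. Of the other ephexins in the list, Arhgef19 fell by -0.42 ± 0.07 in Ro against control (adjusted p = 0.0096). Arhgef5 did not pass (0.09 ± 0.10, adjusted p = 0.517), and its Ro and control values overlapped. Ngef, ephexin itself, had 868 and 857 units in washout, 451 and 529 in Ro, and 1065 and 1039 in control, a difference of -1.11 ± 0.10 in Ro against control (adjusted p = 0.0012). The log2 difference of Arhgef16 was -2.00 ± 0.18 (adjusted p = 0.0012). Arhgef15 was well above background only on the control arrays and passed the filter through that group alone. Its signal was at least 1.40-fold lower in Ro than in control. Its call as a fall (adjusted p = 0.00038) rests on Ro values below background, so it adds nothing to that bound. Chn2, a chimaerin that turns off Rac, had 129 and 134 units in Ro, against 36.6 and 44.1 in control. It rose by 1.71 ± 0.24 on the log2 scale (adjusted p = 0.0046), and Tiam1, an exchange factor for Rac, rose by 0.83 ± 0.09 (adjusted p = 0.0022). In washout against Ro 6 of the 13 were higher and 5 lower, beside 21.4% and 20.1% of all features. The 6 include Arhgef15, which was below background in both of those groups. In washout against control 1 was higher and 1, Arhgef15, lower, beside 4.13% and 5.97% of all features. As Arhgef15 was below background in washout, its signal there was bounded only as at least 1.02-fold lower than in control. Its call as lower adds nothing to that bound. The Arhgef15 call was lost without control 1 or control 2 (adjusted p = 0.068 and 0.086), and also with normexp, with no filter on dim probes and with a trended, robust variance (adjusted p = 0.056, 0.069 and 0.056).

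**Figure D3:**
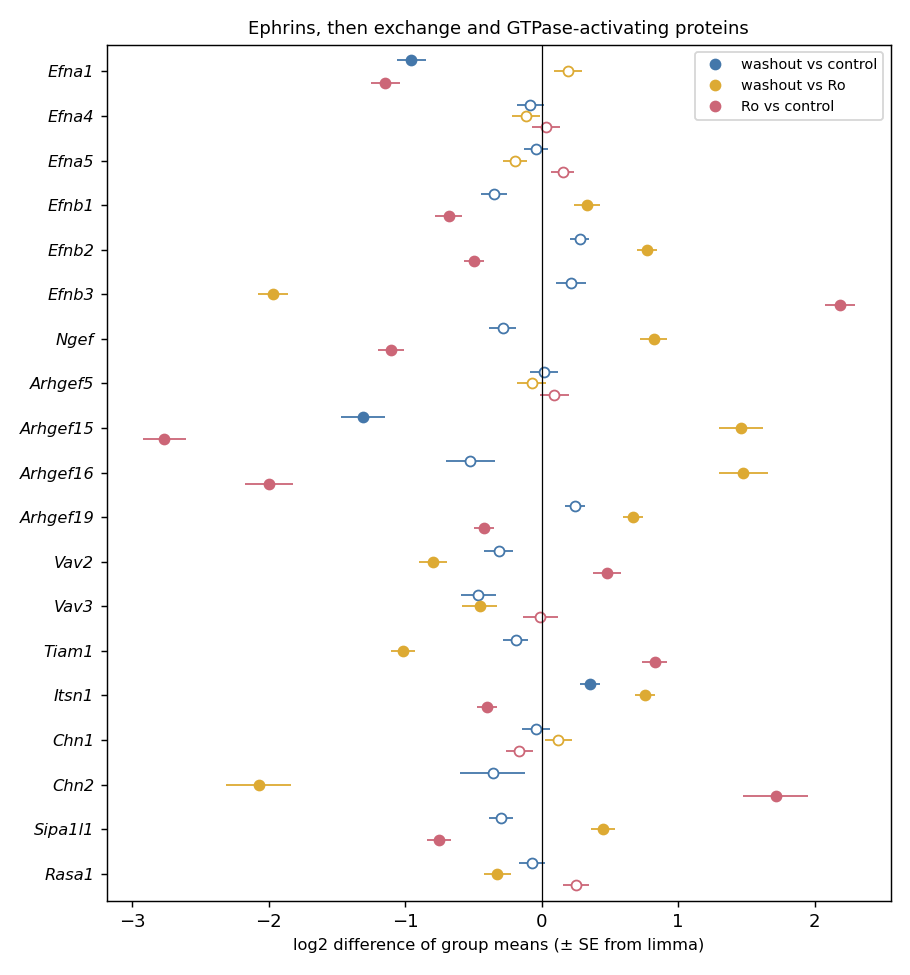
Log2 difference of group means (x axis) for the 6 tested ephrins and, below them, 13 tested exchange factors and GTPase-activating proteins (rows), in the same 3 comparisons. Bars are the SE from limma with 2 arrays per group, filled points passed an adjusted p of 0.05 and open points did not. Efnb3 and Chn2 lie farthest right in Ro against control, and Arhgef15, which was not well above background in Ro or washout, lies farthest left.

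Rises in Ro against control made up 19.4% of all features and falls 22.7%. Among 6 tested proteases and phosphatases that act on Eph receptors or ephrins, 1 rose in Ro and none fell. It was Ptpro, a receptor phosphatase that removes phosphate from Eph receptors, with 186 and 170 units in washout, 883 and 868 in Ro, and 341 and 426 in control. Ro was above and washout below control, with differences of 1.20 ± 0.13 for Ro against control (adjusted p = 0.0020) and -1.10 ± 0.13 for washout against control (adjusted p = 0.014, and 0.057 without control 2). The other Ptpro probe lay in a region of both washout arrays where dim spots were raised. It read 142 and 67.9 units in washout, 8.95 and 10.6 in Ro, and 3.64 and 4.10 in control. It was below background in Ro and control, and by itself gave the opposite sign, 4.67 ± 0.35 for washout against control (adjusted p = 0.0081). The mean of both probes put washout against control at 1.78. The call as lower in washout was also lost with no filter on dim probes (adjusted p = 0.065). No Eph receptor probe lay in such a region.

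Markers of other cells that could carry these receptors moved as well, and since these are bulk cultures, fewer cells of a type and less RNA per cell cannot be told apart. The counts below stand beside 19.4% of all features that rose in Ro and 22.7% that fell. Of 6 tested neuron markers 4 fell and 1 rose in Ro. Their summed intensity was 10840 to 11230 in washout, 6433 to 6866 in Ro and 11190 to 11410 in control, and Snap25 and Slc17a6 were not above background. Of 4 oligodendrocyte precursor markers all 4 fell in Ro, with sums of 11210 to 11840 in washout, 4531 to 4539 in Ro and 18130 to 18400 in control. Pericyte and smooth muscle markers, 3 of 5 lower and 1 higher in Ro, summed to 135800 to 138600 in washout, 59620 to 59980 in Ro and 186600 to 207400 in control. Nearly all of this sum was the signal of 1 probe, that of Acta2, with 133460 and 130540 units in washout, 57128 and 56610 in Ro, and 181760 and 202720 in control. Kcnj8, of the same list, went the other way, with 50.2 and 49.8 units in washout, 140.5 and 116 in Ro, and 52.6 and 47.1 in control. The sums of the other lists are likewise weighted to their brightest probes. Of 6 endothelial markers only Kdr and Flt1 were measured, with sums of 756 to 835 in washout, 2228 to 2423 in Ro and 714 to 775 in control (Kdr higher and Flt1 lower in Ro), and Pecam1, Cdh5 and Cldn5 were not above background. Of 8 astrocyte markers 2 rose and 5 fell, with sums of 111800 to 119400 in washout, 76130 to 80920 in Ro and 107900 to 116400 in control. Microglia markers (4 of 6 lower, 1 higher) summed to 2611 to 2753 in washout, 1692 to 2029 in Ro and 2620 to 2668 in control. Ependymal markers (4 of 4 lower) summed to 28610 to 30830 in washout, 8728 to 10130 in Ro and 25360 to 25890 in control. Meningeal fibroblast markers (2 of 6 higher, 3 lower) summed to 9129 to 9419 in washout, 13320 to 13910 in Ro and 14090 to 17780 in control. Oligodendrocyte markers (1 of 4 higher, 1 lower) summed to 6240 to 7538 in washout, 6350 to 7660 in Ro and 5197 to 5782 in control. The part of these cells in the receptor differences was not tested.

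Likeness to each receptor was measured as the distance between log2 profiles over the 6 arrays, each centred on its own mean, among 13052 other named genes. The 3 nearest to Epha7 were Gsta1, Car8 and Nefm, at distances of 0.26 to 0.31. Cgnl1, Crym and Ppfibp2 came nearest to Ephb1 (0.16 to 0.19), and Pa2g4, Sidt2 and Pcmtd1 to Epha4 (0.06 to 0.13). Cbx7, Gprc5a and Dmrtc1a were nearest to Epha5 (0.14). The profile of Epha2 was matched most closely by Oard1, Plxnb1 and Mbnl2 (0.08 to 0.10), of which Plxnb1 is a semaphorin receptor. Clip2, Tssc4 and Peli3 were nearest to Ephb3 (0.10 to 0.11), and Fsip1, Pxmp2 and Cfap20 to Ephb2 (0.09 to 0.10). The nearest to Epha3 were farther off, Prr15, Prmt8 and Otulinl (1.01 to 1.23).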

How the data were processed

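The authors labelled RNA with Cy3 and, per the file headers, extracted the scans with Agilent Feature Extraction 10.5.1.1 (10.1 per the submitters' processing notes). The deposited array files hold a processed intensity per spot, background-subtracted and detrended array by array, with no scaling across arrays. A deposited table covering every sample gives the authors' linear ratio for each probe, with array medians of 0.872 to 0.987, centred by a rule not given in the sources used here. It served only as an alternative.

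Of 41174 non-control probes, 106 with faulty spots were left out. Each array was scaled by dividing the processed intensity by its 75th percentile (629 to 804 units) and taking log2. The filter kept 26473 probes that were well above background on each array of 1 group or more. Accessions were named through RefSeq tables, which gave a symbol to 25097 probes (61.0%). Each feature was represented by its probe with the highest mean. This gave 20091 features, of which 13053 had a symbol and the others were kept under the array's own identifier. Groups were compared over 6 arrays with limma 3.58.1 in R 4.3.3, which estimated 2.09 prior beside 3 residual degrees of freedom. Adjusted p-values are Benjamini-Hochberg over all features, two-sided. An exact permutation test of 2 arrays against 2 could not go below 0.333, so each call rests on the pooled spread. Where a gene was below background in 1 group, its change is a lower bound against the lowest signal called above background. The number of arrays limits the precision.

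All 10 receptors are described. From each pathway list, genes that passed in any comparison could be named, at most 5 a list by size of change, and the 3 nearest profiles were named for each receptor that passed. Other names from lists (markers, Arhgef5, Arhgef19, and ephrins and Eph receptors that did not pass or were not tested) were given after their values were seen. The results of 1 pathway list are not reported here. Members and lists were chosen with earlier results of these data known. Promoter sequences are RefSeq's, build GRCm38.p6, and the array design names an older build. The fitting procedure was tested on simulated data with far fewer changed features than were called here. That test therefore says nothing on the counts of calls. Plots used Python 3.11.15 and matplotlib 3.10.9. Alternatives changed the scaling, background correction, filter, probe choice, variance model, arrays and pairing.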

Additional observations from a re-analysis of the deposited data

How the results depend on the processing

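Each value was recomputed under 12 other settings and without each array in turn. The receptors called in Ro against control stayed between 5 and 7 of 10 under all of these (5 to 6 without single arrays, 6 with the replicate block), and those in washout against Ro between 6 and 9 (6 to 8 without single arrays, 6 with the replicate block). The 1 call of washout against control was the least stable. It became 2 with quantile normalization, with normexp on the median signal and with a trended, robust variance, where Ephb2 was added as higher. It became 0 with no filter on dim probes, with only the arrays of the compared groups, with the replicate block, and without any single array (0 to 0). Those settings fit fewer arrays, more dim probes or fewer residual degrees of freedom. The share of all features called under each setting is not given here, so these counts are not read as particular to the receptors. Same-numbered arrays had correlated deviations of -0.12, -0.11 and 0.08 between groups, so the numbers were not taken as pairs.

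Signs turned only for differences that had not passed the test, apart from Ptpro. Ephb4 in Ro against control was -0.13 without control 1 and -0.027 without Ro 2, in a range of -0.13 to 0.15 without single arrays. Ephb6 in Ro against control was -0.052 without control 2 and -0.035 without Ro 2 (range -0.052 to 0.18). Ephb6 in washout against Ro was -0.085 with median centring, -0.092 with quantile normalization, -0.080 with normexp and -0.099 with the authors' values, and -0.092 without Ro 1 and -0.047 without washout 2 (range -0.092 to 0.10). In washout against control Ephb6 was -0.046 without control 2 (range -0.046 to 0.18) and Epha4 0.091 without washout 1 (range -0.20 to 0.091). Epha5 was 0.0028 with normexp, 0.033 with the mean of its probes and 0.039 without control 2 (range -0.12 to 0.039). Ptpro turned to 0.52 in washout against Ro and 1.78 in washout against control with the mean of its probes, 1 of which lay in a raised region of the washout slide. Median centring and the authors' values moved the median of all features in washout against Ro to -0.11 and -0.12, and no filter on dim probes to 0.14, where it was -0.02 in the values reported.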
